A study of Mus musculus with 8 samples.

Results

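Type I interferon-stimulated genes were examined in RNA-seq libraries of epididymal white fat, an abdominal depot, from mice with the S273A knock-in allele of PPARγ and of wild-type (WT) mice. PPARγ, a nuclear receptor, controls the formation of adipocytes, and in S273A a serine of the protein that is known to be phosphorylated in obese adipose tissue is replaced by alanine. The set holds 37 genes of the interferon pathway, chosen by symbol, and leaves out the GTPases of the Gbp and Irg families that interferon gamma induces most strongly. Of these, 35 had a row in the table of 31854 gene rows, and Parp9 and Ifi35 are not analysed here. All 35 passed the filter on low counts, as did 15667 rows in all.

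The S273A group had 4 libraries (replicates 2, 3, 4 and 6) and the WT group had 4 libraries (replicates 1, 2, 3 and 5). Mice of both genotypes had been fed a high-fat diet, and RNA was taken from the whole tissue. The labels used here state neither zygosity, age nor length of feeding, and they do not say that each library is a separate animal. The tests therefore weigh differences against the spread between libraries, which may be technical. The comparison asks how the S273A allele alters transcript levels in this depot.

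The libraries held 16161127 to 18194889 counts in S273A and 14880239 to 17266209 in WT, and log2 CPM correlated at 0.985 to 0.993 between libraries across genes. Levels are given as CPM, counts scaled to a common library total after TMM normalization. All 10 adipocyte markers were detected, with a summed level of 7735 to 10010 CPM in S273A and 6624 to 10150 CPM in WT, as were all 14 macrophage markers. Counts per gene cannot show a changed codon, so the genotype rests on the labels. Pparg itself averaged 140 ± 18.1 CPM in S273A and 129 ± 15.0 CPM in WT (SD, n = 4 each).

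Type I interferons are cytokines that nearly all nucleated cells can make when they sense viral or misplaced nucleic acid. They bind a receptor of the chains Ifnar1 and Ifnar2, whose kinases Jak1 and Tyk2 activate transcription factors such as Stat2. Stat2 and Irf9 belong to a complex that binds the interferon-stimulated response element (ISRE) in the promoters of induced genes, while the gamma-activated sequence (GAS) is the element known for responses to interferon gamma. In adipose tissue the response has been described in adipocytes and in resident macrophages, and in obesity it accompanies inflammation of the depot.

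The promoters of 28 of the 37 genes were found in the RefSeq table of GRCm38.p6, which covers 250 bases before to 50 bases after each start. The ISRE was searched as GAAANNGAA, or TTCNNTTTC on the other strand, and the GAS as the palindrome TTCNNNGAA. An ISRE occurred in 14 of the 28 (50%), against 2638 of 27025 genes in the table (9.76%). The GAS occurred in 10 of the 28 (35.7%) and in 9.55% of all genes. A match describes these letters only and does not show that a factor was bound.

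Sequences before the start are shown for the 4 genes whose ISRE lies nearest to it and wholly before it, with the matched letters in capitals. Each is read 5′ to 3′ along the gene and ends at the last base before the RefSeq start. The stretches are Trim25 at chr11:88999386-88999402 (plus strand), Oas1a at chr5:120907526-120907625 (minus strand), Trim30a at chr7:104465194-104465293 (minus strand) and Isg15 at chr4:156200819-156200918 (minus strand). Trim25 is shown short because another annotated transcript begins further upstream, at chr11:88999376. Its stretch precedes the RefSeq start but lies inside the gene as annotated in GENCODE.
Trim25: ccctcctgTTCAGTTTC
Oas1a: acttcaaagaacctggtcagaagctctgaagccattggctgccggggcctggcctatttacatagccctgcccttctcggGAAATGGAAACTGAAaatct
Trim30a: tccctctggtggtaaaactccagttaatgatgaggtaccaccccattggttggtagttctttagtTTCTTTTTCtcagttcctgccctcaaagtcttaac
Isg15: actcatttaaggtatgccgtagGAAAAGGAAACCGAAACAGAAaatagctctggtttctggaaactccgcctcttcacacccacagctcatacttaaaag
In Trim25 the element ends at the RefSeq start itself, and in Oas1a it ends 5 bases before the RefSeq start. Oas1a and Isg15 each carry overlapping matches in 1 run, read on the gene's own strand, and Trim25 and Trim30a carry theirs on the other strand.

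The promoters of Isg20 and Irf1 held no ISRE in their windows but held a GAS, in capitals below. They are shown because Isg20 is the member with the smallest p in the comparison of genotypes and Irf1 encodes a transcription factor that interferon gamma is known to induce. The stretch of Isg20 is chr7:78913324-78913423 and that of Irf1 is chr11:53769914-53770013, both on the plus strand.
Isg20: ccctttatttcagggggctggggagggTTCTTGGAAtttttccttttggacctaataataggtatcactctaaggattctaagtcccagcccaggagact
Irf1: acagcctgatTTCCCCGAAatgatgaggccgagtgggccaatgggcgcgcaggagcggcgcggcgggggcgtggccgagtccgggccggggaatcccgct

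All 35 genes were expressed in every library, and 26 of them stood at 10 CPM or more in each. Per kilobase of the deposited row length (RPKM), mean levels over the 8 libraries ran from 2.202 to 39.4 with a median of 8.78. Bst2, the tetherin that holds budding virus on the cell surface, was highest at 39.4 RPKM. It was followed by Trim25, a ubiquitin ligase that acts on the RNA sensor RIG-I, at 37.8 RPKM. Samhd1, which hydrolyses deoxynucleotides, came next at 32.5 RPKM. By genotype, Bst2 stood at 37.5 ± 3.89 RPKM in S273A and 41.4 ± 6.01 RPKM in WT, Trim25 at 37.8 ± 2.72 RPKM in S273A and 37.9 ± 2.95 RPKM in WT, and Samhd1 at 31.4 ± 5.13 RPKM in S273A and 33.6 ± 5.55 RPKM in WT (SD, n = 4 each). Across libraries the RPKM values of these 3 neighbours overlapped. The lowest were Mx2 at 2.202 RPKM, which is annotated as a polymorphic pseudogene, Oas3 at 2.81 RPKM and Ifi44 at 2.87 RPKM.

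**Figure D1:**
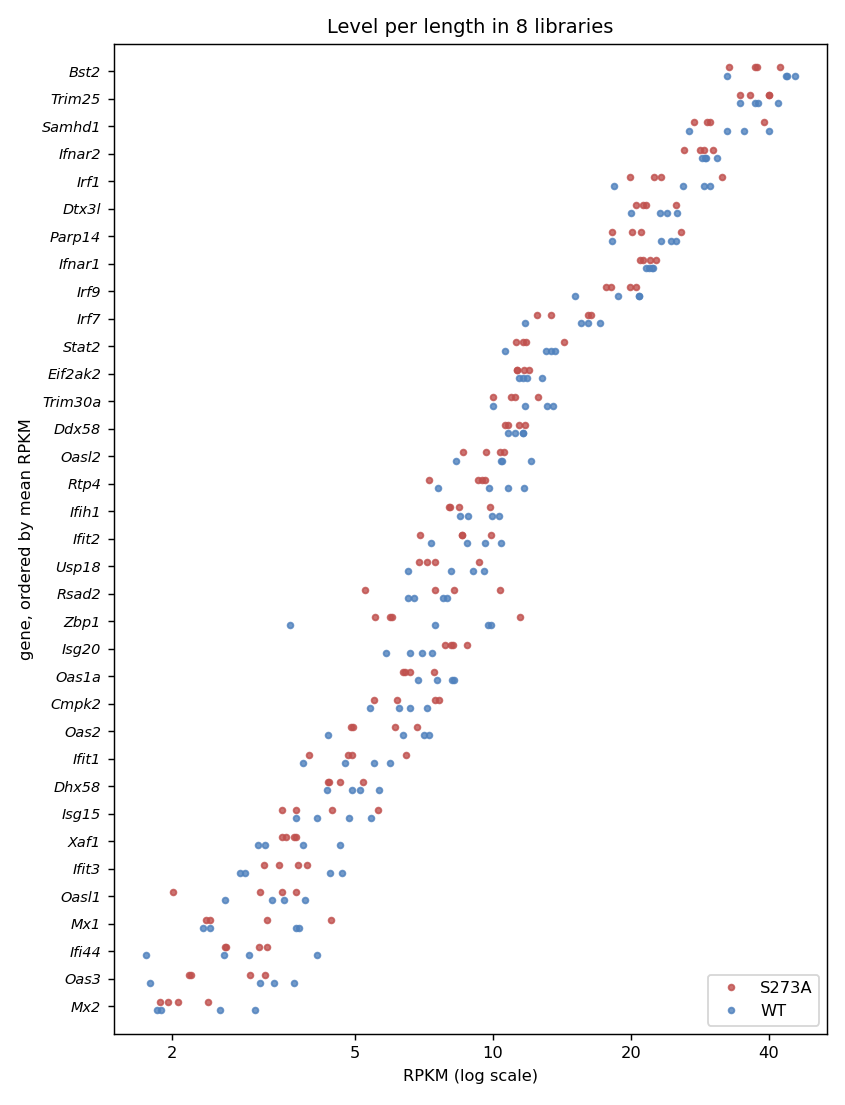
RPKM of each of the 35 genes on a log axis, one point per library, S273A in red above WT in blue, ordered by the mean over 8 libraries. Levels span 2.202 RPKM (Mx2) to 39.4 RPKM (Bst2), and within nearly every gene the points of the genotypes interleave.

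None of the 35 genes was called different between S273A and WT. The adjusted p was 1 for each by edgeR's quasi-likelihood test with Benjamini-Hochberg adjustment over all rows, where 0% of the 15667 rows were called. At an unadjusted p under 0.05, 1 gene was higher in S273A (Isg20) and 1 was lower (Oas1a), against 0.913% and 0.549% of all rows, or 1.46% in either direction. The unadjusted p of the 35 had a median of 0.513. limma-voom called no row and had 2 members under that unadjusted p, beside 1.42% of rows. DESeq2 called 0.00441% of its rows, no member among them, and had 1 member under it, beside 0.952% of rows. Only Isg20 had groups that did not overlap, higher in S273A in all 4 libraries, a pattern that 0.657% of all rows showed, and 1.19% showed in either direction. Because the libraries come from whole tissue, fewer cells of a type and less RNA per cell cannot be told apart.

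The fitted log2 fold changes (S273A over WT) ran from -0.20 in Oas1a to 0.30 in Isg20, with a median of -0.07, beside 0.0015 over all rows. The estimate was below 0 in 28 of 35 genes, beside 49.3% of all rows, and above 0 in 7, beside 50.7%. Such a lean was not particular to the members. Estimates were below 0 in 12 of 14 macrophage markers, 9 of 10 T and NK cell markers and 4 of 6 fibroblast and progenitor markers. They were above 0 in 9 of 10 adipocyte markers and in all 6 B cell, all 7 endothelial and all 7 mesothelial markers. The members share libraries and move together across them, so the 28 are not independent observations. The summed level of the 35 was 1848, 2207, 1772 and 1956 CPM in S273A and 2169, 2173, 2052 and 1722 CPM in WT. The lowest sum was that of WT replicate 5 and the highest that of S273A replicate 3, so the groups overlapped over nearly their whole range. The median of -0.07 was -0.16 without WT replicate 5 and -0.13 without S273A replicate 3. It was -0.02 without WT replicate 1 or S273A replicate 4, -0.03 without S273A replicate 2, and -0.05 without WT replicate 2. At an unadjusted p under 0.05, 5 members were lower and 1 (Isg20) was higher without WT replicate 5. In that fit 261 of 15819 rows passed in either direction. The number lower was 0 without WT replicate 1, 2 or 3 or S273A replicate 2 or 4.

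The precision differed between genes. The 95% confidence interval of the log2 fold change had a median half-width of 0.28 over the members. Over the 12113 rows within their range of mean log2 CPM it was 0.20. For 25 of the 35 the whole interval lay within 0.5 of 0. This held for 10647 of those 12113 rows and for 11467 of all 15667. The widest interval of a member was that of Zbp1, with a half-width of 0.73. In 33 of the 35 the within-genotype SD of log2 CPM was larger than the difference between genotypes. The share over all rows was not counted, so this does not set the members apart from other genes.

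**Figure D2:**
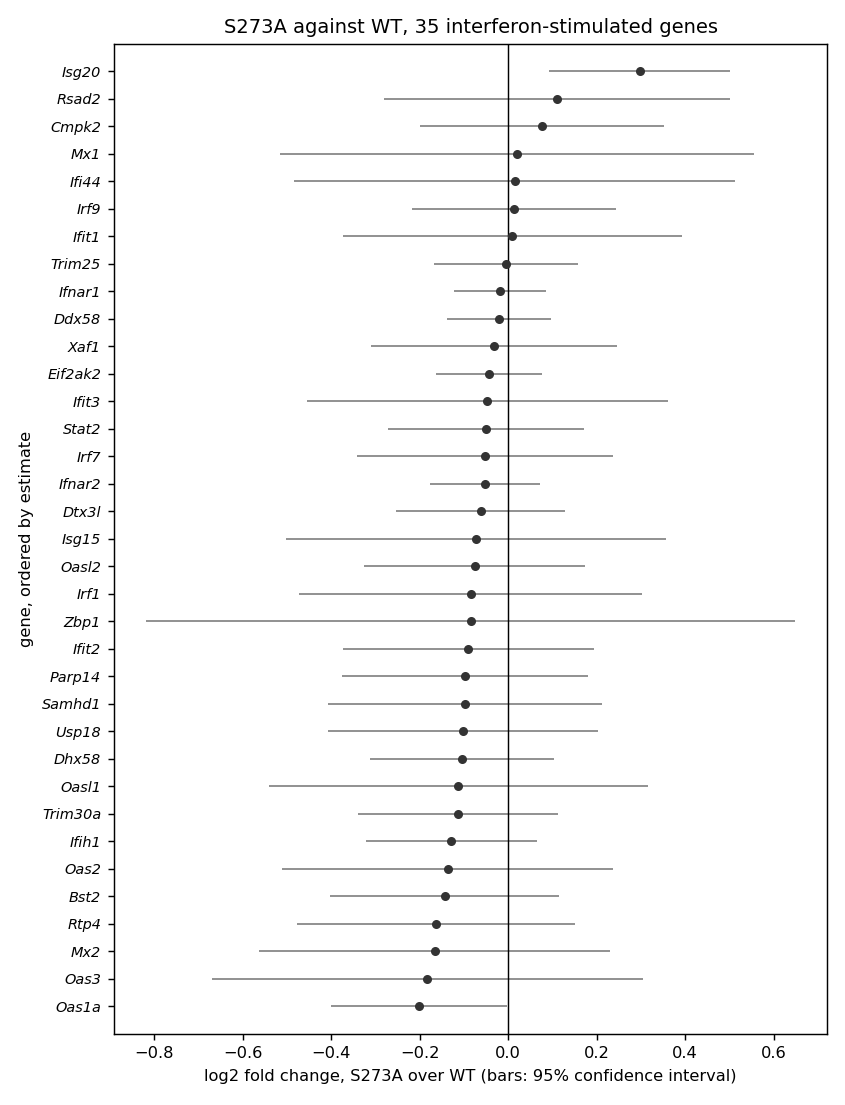
Log2 fold change, S273A over WT, of each of the 35 genes (points) with its 95% confidence interval (bars), ordered by the estimate. The interval of Isg20 lies above 0 and that of Oas1a just below it, before any adjustment over the 15667 rows, and the other 33 intervals cross 0.

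The receptor chains were among the steadiest genes of the set. Ifnar1 and Ifnar2 are neighbours in a stretch of 134.7 kb on chromosome 16, at chr16:91485238-91507441 and chr16:91372783-91405589 (GRCm38, plus strand). Ifnar1 had 148, 156, 150 and 161 CPM in S273A and 155, 157, 158 and 153 CPM in WT. Its log2 fold change was -0.02 (SE 0.05), with an interval of -0.12 to 0.09, and its highest library was 1.09 times its lowest. Ifnar2 had 91.8, 89.9, 82.9 and 95.8 CPM in S273A and 98.1, 92.6, 92.4 and 90.8 CPM in WT, a log2 fold change of -0.05 (SE 0.06). For both chains the genotypes overlapped. Exons of Ifnar2 overlap Gm21970 on the same strand.

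Of the transcription factors, Stat2 and Irf9 belong to the complex that reads the ISRE. Stat2, at chr10:128270559-128292849 on the plus strand, had 52.1, 62.9, 49.6 and 51.2 CPM in S273A and 57.6, 60.1, 59.0 and 46.8 CPM in WT, a log2 fold change of -0.05 (SE 0.10). Irf9 had 47.5, 55.2, 48.6 and 53.7 CPM in S273A and 56.1, 55.9, 50.4 and 40.6 CPM in WT, a log2 fold change of 0.01 (SE 0.10). For Stat2 and Irf9 alike, WT replicate 5 was the lowest of the 8 libraries. An exon of Irf9 overlaps 1 of Rnf31 on the same strand.

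Irf7 drives transcription of the interferon alpha genes and is itself induced. It had 25.0, 30.4, 23.2 and 29.97 CPM in S273A and 29.97, 28.9, 31.9 and 21.8 CPM in WT, a log2 fold change of -0.05 (SE 0.13). Irf1, which both interferon types induce, had 78.2, 106, 66.8 and 75.4 CPM in S273A and 97.1, 100, 87.3 and 61.8 CPM in WT, a log2 fold change of -0.08 (SE 0.17). In both genes each genotype had high and low libraries. Exons of Irf7 overlap Phrf1 and exons of Irf1 overlap Gm17334 on the opposite strand, and the libraries do not mark the strand, so reads of these overlaps cannot be assigned.

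The 5 sensors of nucleic acid all had estimates below 0, with a median log2 fold change of -0.08, and none was called. Ifih1, which encodes the RNA sensor MDA5, had 63.6, 78.2, 63.9 and 66.9 CPM in S273A and 81.7, 79.2, 69.9 and 67.3 CPM in WT, a log2 fold change of -0.13 (SE 0.09). Dhx58, which encodes the regulatory helicase LGP2, had 20.1, 22.6, 19.0 and 19.0 CPM in S273A and 22.2, 21.3, 24.4 and 18.8 CPM in WT, a log2 fold change of -0.10 (SE 0.09). The genotypes overlapped in both, and Dhx58 shares exon sequence with Dhx58os on the opposite strand.

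Ddx58, which encodes RIG-I, averaged 71.4 ± 3.35 CPM in S273A and 72.5 ± 2.64 CPM in WT (SD, n = 4 each). Eif2ak2 encodes PKR, the kinase that halts translation on double-stranded RNA, and averaged 50.1 ± 1.39 CPM in S273A and 51.7 ± 2.63 CPM in WT (SD, n = 4 each). With Ifnar1 these 2 had the smallest within-genotype SD of log2 CPM among the 35, at 0.061 and 0.058 beside 0.040, a trio picked after the values were seen. Zbp1, the sensor of left-handed nucleic acid that can start necroptosis, had the largest at 0.59. Zbp1 stood at 13.0, 24.9, 11.9 and 12.9 CPM in S273A and 21.5, 21.1, 16.2 and 7.81 CPM in WT, with a log2 fold change of -0.08 (SE 0.33). S273A replicate 3 was high beside the other S273A libraries, and WT replicate 5 was the lowest of all 8. The highest library stood at 3.18 times its level.

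The IFIT proteins bind foreign RNA ends and block their translation. Ifit2, Ifit3 and Ifit1 lie within 99.3 kb on chromosome 19, and their estimates were close to 0, with a median log2 fold change of -0.05. Ifit1 averaged 13.3 ± 2.75 CPM in S273A and 13.3 ± 2.46 CPM in WT, Ifit2 33.6 ± 4.76 CPM in S273A and 35.7 ± 5.23 CPM in WT, and Ifit3 7.14 ± 0.678 CPM in S273A and 7.40 ± 1.98 CPM in WT (SD, n = 4 each). Ifit3 has the near copy Ifit3b, between which short reads may be split. Summed, the copies stood at 10.2 ± 0.888 CPM in S273A and 10.1 ± 2.47 CPM in WT (SD, n = 4 each).

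The OAS enzymes make the oligoadenylates that activate the ribonuclease RNase L, and Oasl1 and Oasl2 are their relatives. All 5 had estimates below 0, with a median log2 fold change of -0.14, and none was called. Oas1a, at chr5:120896256-120907521 on the minus strand with no overlapping exon, had 12.0, 12.1, 12.5 and 14.03 CPM in S273A and 14.3, 15.6, 15.4 and 13.0 CPM in WT. S273A replicate 6 and WT replicate 5 crossed over, so the groups overlapped. The log2 fold change was -0.20 (SE 0.09), with an unadjusted p of 0.0482 and an adjusted p of 1 by edgeR's quasi-likelihood test with Benjamini-Hochberg adjustment.

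Oas1g, a near copy of Oas1a that was outside the set, stood at 1.62, 2.42, 1.95 and 2.71 CPM in S273A and 3.44, 3.13, 2.94 and 2.76 CPM in WT. Its groups did not overlap, which in this direction held for 0.53% of all rows, and its log2 fold change of -0.50 (SE 0.18) was not called. Reads may be split between these copies. Their sum was 13.7, 14.6, 14.4 and 16.7 CPM in S273A and 17.7, 18.7, 18.3 and 15.7 CPM in WT, and S273A replicate 6 lay above WT replicate 5.

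Oas2 and Oas3 share a stretch of 47.3 kb near Oas1a, and Oasl2 and Oasl1 share 41.0 kb elsewhere on chromosome 5. Oas2 averaged 25.4 ± 4.23 CPM in S273A and 27.9 ± 5.87 CPM in WT, and Oas3 13.3 ± 2.62 CPM in S273A and 15.1 ± 4.19 CPM in WT. Oasl1 averaged 11.1 ± 2.73 CPM in S273A and 12.0 ± 1.96 CPM in WT, and Oasl2 30.8 ± 2.80 CPM in S273A and 32.4 ± 4.84 CPM in WT (SD, n = 4 each). Oas3 was among the 3 most variable members, with a within-genotype SD of log2 CPM of 0.38, and in these 4 genes the genotypes overlapped.

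Among the genes of the ISG15 and ubiquitin system, all 6 estimates were below 0, with a median log2 fold change of -0.08, and none was called. Isg15, the ubiquitin-like protein that gives the system its name, had the fewest counts of the set, 450 over all libraries. It averaged 3.26 ± 0.729 CPM in S273A and 3.43 ± 0.572 CPM in WT, and Usp18, the protease that removes Isg15 and damps receptor signalling, 13.7 ± 1.93 CPM in S273A and 14.7 ± 2.37 CPM in WT (SD, n = 4 each). Parp14, an ADP-ribosyltransferase, averaged 196 ± 29.4 CPM in S273A and 210.0 ± 28.9 CPM in WT. Dtx3l, the ubiquitin ligase that partners Parp9, averaged 215 ± 19.6 CPM in S273A and 224 ± 21.4 CPM in WT, and its exons overlap those of Parp9 on the opposite strand. Trim25 averaged 215 ± 15.5 CPM in S273A and 216 ± 16.8 CPM in WT (SD, n = 4 each).

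Trim30a restrains Toll-like receptor signalling in the mouse. It had 64.2, 73.3, 58.5 and 65.4 CPM in S273A and 76.6, 79.0, 68.8 and 58.5 CPM in WT, a log2 fold change of -0.11 (SE 0.10). WT replicate 5 lay just below the lowest S273A library, so the groups overlapped. Summed with its neighbour and near copy Trim30d it stood at 93.7 ± 8.88 CPM in S273A and 101 ± 13.4 CPM in WT (SD, n = 4 each).

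The 7 antiviral effectors were the group with most estimates above 0, 4 of 7, and a median log2 fold change of 0.02. Isg20, an exonuclease that degrades single-stranded RNA, lies at chr7:78913424-78920396 on the plus strand with no overlapping exon. It had 12.4, 12.9, 13.8 and 12.8 CPM in S273A and 11.04, 11.6, 10.4 and 9.22 CPM in WT. Every S273A library was above every WT library, by 1.23-fold on average. The log2 fold change was 0.30 (SE 0.09, interval 0.09 to 0.50), with an unadjusted p of 0.00909 and an adjusted p of 1 by edgeR's quasi-likelihood test with Benjamini-Hochberg adjustment. In RPKM, Isg20 stood at 8.25 ± 0.392 in S273A and 6.71 ± 0.650 in WT (SD, n = 4 each).

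Rsad2 encodes viperin, which makes a chain-terminating nucleotide, and Cmpk2, a mitochondrial nucleotide kinase, is its neighbour within 37.1 kb on chromosome 12. Rsad2 averaged 33.1 ± 8.92 CPM in S273A and 30.6 ± 2.98 CPM in WT, a log2 fold change of 0.11 (SE 0.17). Cmpk2 averaged 21.4 ± 3.25 CPM in S273A and 20.3 ± 2.41 CPM in WT, a log2 fold change of 0.08 (SE 0.12). In both genes S273A replicate 6 held the highest value.

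Mx1 and Mx2 belong to a family of dynamin-like GTPases known to restrain virus replication, and lie within 113.9 kb on chromosome 16. Mx2 is annotated as a polymorphic pseudogene, and whether these mice make either protein was not tested. Mx1 averaged 10.4 ± 3.23 CPM in S273A and 10.2 ± 2.66 CPM in WT (SD, n = 4 each), with the second largest within-genotype SD of the set, 0.40 in log2 CPM. Mx2 had 4.74, 5.79, 4.997 and 4.55 CPM in S273A and 7.36, 4.49, 6.16 and 4.58 CPM in WT, a log2 fold change of -0.17 (SE 0.18). WT replicates 1 and 3 were high and the other two WT libraries lay near the S273A ones.

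Bst2, at chr8:71534255-71537456 on the minus strand, had 28.6, 32.3, 25.0 and 28.9 CPM in S273A and 34.95, 33.6, 33.5 and 24.9 CPM in WT, a log2 fold change of -0.14 (SE 0.12). WT replicates 1, 2 and 3 were above every S273A library and WT replicate 5 was below them all. Samhd1 had the most counts of the set, 35922, and averaged 256 ± 41.8 CPM in S273A and 274 ± 45.1 CPM in WT (SD, n = 4 each).

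Of the other induced genes, Rtp4, a chaperone of membrane receptors, had 11.4, 15.1, 14.6 and 14.89 CPM in S273A and 17.03, 15.4, 18.4 and 12.0 CPM in WT, a log2 fold change of -0.16 (SE 0.14). S273A replicate 2 and WT replicate 5 were low within their own genotypes. Exons of Rtp4 overlap Gm45338 on the same strand. Ifi44 averaged 8.39 ± 0.923 CPM in S273A and 8.32 ± 2.88 CPM in WT, and Xaf1, a promoter of cell death, 16.4 ± 0.542 CPM in S273A and 16.8 ± 3.28 CPM in WT (SD, n = 4 each).

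**Figure D3:**
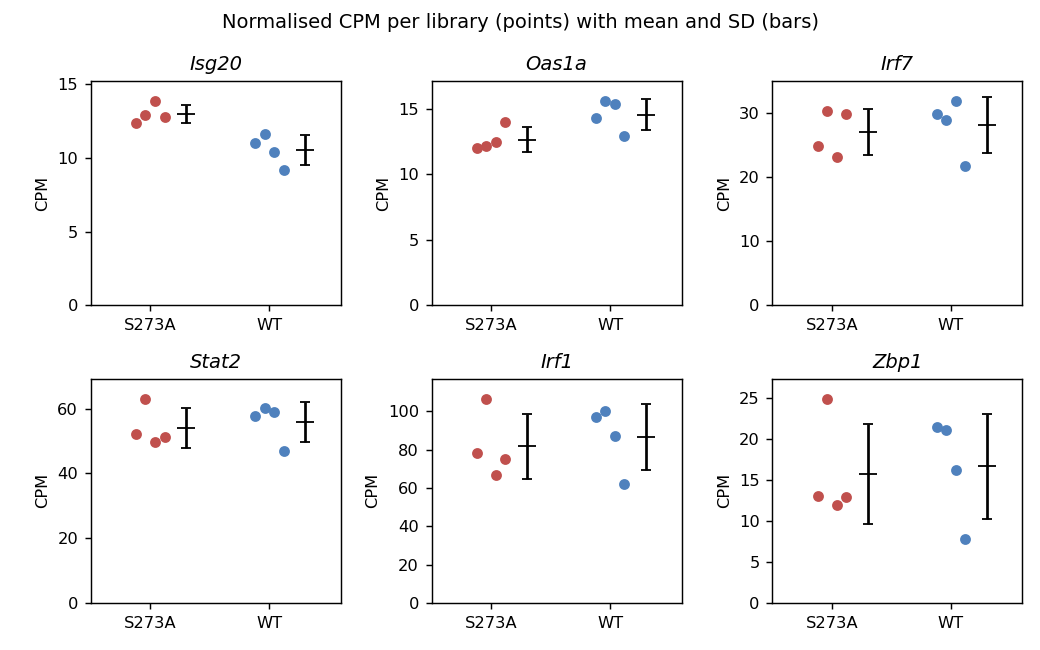
Normalised CPM of 6 members in each library (points, S273A left in red, WT right in blue), with the mean and SD over 4 libraries. Isg20 is higher in every S273A library (12.4 to 13.8 CPM) than in any WT library (9.22 to 11.6 CPM), and in the other 5 genes the points overlap.

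Between libraries of 1 genotype the members varied more, in the median, than genes at their level did. Their median within-genotype SD of log2 CPM was 0.21, beside 0.13 over the 12113 rows within their range of mean log2 CPM. Of the cell type marker lists tested, only the macrophage markers had a lower median, 0.17. The adipocyte markers stood at 0.24 and the T and NK cell markers at 0.53, so such a spread was not particular to the members. WT replicate 5 was the lowest of the 8 libraries for 21 of the 35 genes and stood above the 8-library mean for none of them. WT replicate 1 was the highest for 13, and both it and S273A replicate 3 stood above the mean for 33. S273A replicates 2 and 4 stood above it for 3 and 2 genes. The libraries most often highest and most often lowest were thus both WT.

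A score, the mean over members of log2 CPM minus each member's 8-library mean, was -0.15, 0.16, -0.14 and 0.02 in S273A and 0.19, 0.08, 0.10 and -0.27 in WT. The genotype means were -0.03 ± 0.15 in S273A and 0.03 ± 0.20 in WT (SD, n = 4 each), a difference smaller than either SD. The 4 transcription factors also scored lowest in WT replicate 5, with -0.09, 0.21, -0.19 and -0.01 in S273A and 0.14, 0.16, 0.10 and -0.32 in WT. The receptor chains stayed between -0.09 and 0.06 in every library.

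**Figure D4:**
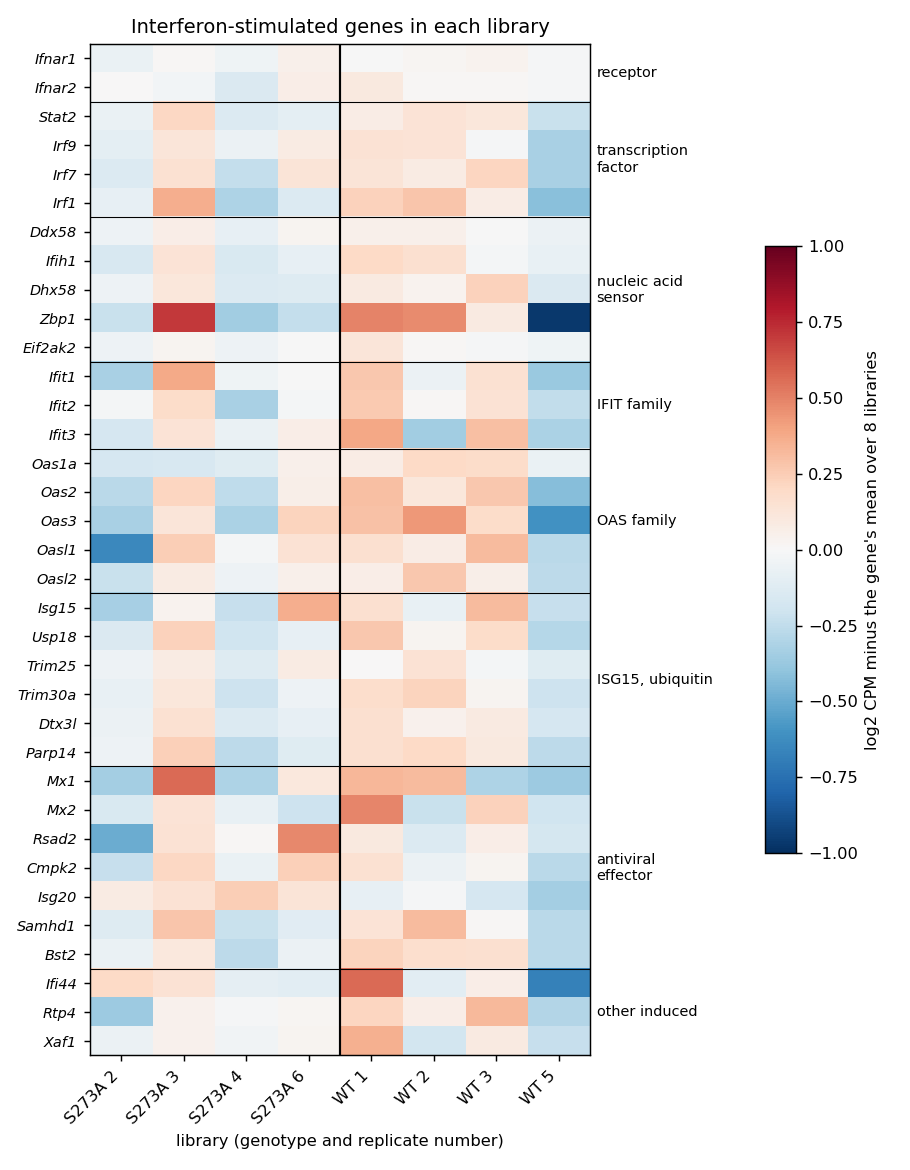
Log2 CPM of each gene (rows, grouped by role) minus its mean over 8 libraries, for S273A replicates 2, 3, 4 and 6 and WT replicates 1, 2, 3 and 5 (columns). WT replicate 5 is below 0 (blue) in every row, WT replicate 1 and S273A replicate 3 are each above 0 (red) in 33 of 35 rows, and the receptor rows are nearly white.

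Marker lists of other cell types moved across the same libraries. The T and NK cell markers, all 10 detected, summed to 87.5, 107, 51.8 and 61.1 CPM in S273A and 101, 111, 85.9 and 47.8 CPM in WT. They were lowest in WT replicate 5 and S273A replicate 4, where the interferon score was also below 0. In S273A replicate 2 their score was 0.10 and the interferon score -0.15, and in S273A replicate 6 these were -0.29 and 0.02. Their part in the pattern was not tested. All 14 macrophage markers summed to 4735 to 5498 CPM in S273A and 5093 to 6103 CPM in WT. Their score was -0.14, 0.05, -0.14 and 0.05 in S273A and -0.04, 0.19, -0.04 and 0.08 in WT. Like the interferon score, it was below 0 in S273A replicates 2 and 4. In WT replicate 5 it was above 0, where the interferon score was -0.27, and in WT replicates 1 and 3 the signs also differed. Their part in the pattern was not tested either. The plasmacytoid dendritic cell markers, from cells known as strong producers of interferon, summed to 25.7 to 72.5 CPM in S273A and 30.2 to 55.2 CPM in WT with all 8 detected. The B cell markers summed to 99.8 to 229 CPM in S273A and 98.7 to 195 CPM in WT with all 6 detected. Both lists were highest in S273A replicate 3, and the part of either was not tested. Markers of epididymis and testis were near 0, at 0.0562 to 1.23 CPM in S273A and 0 to 0.117 CPM in WT, with 3 of 7 at 0 in every library.

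**Figure D5:**
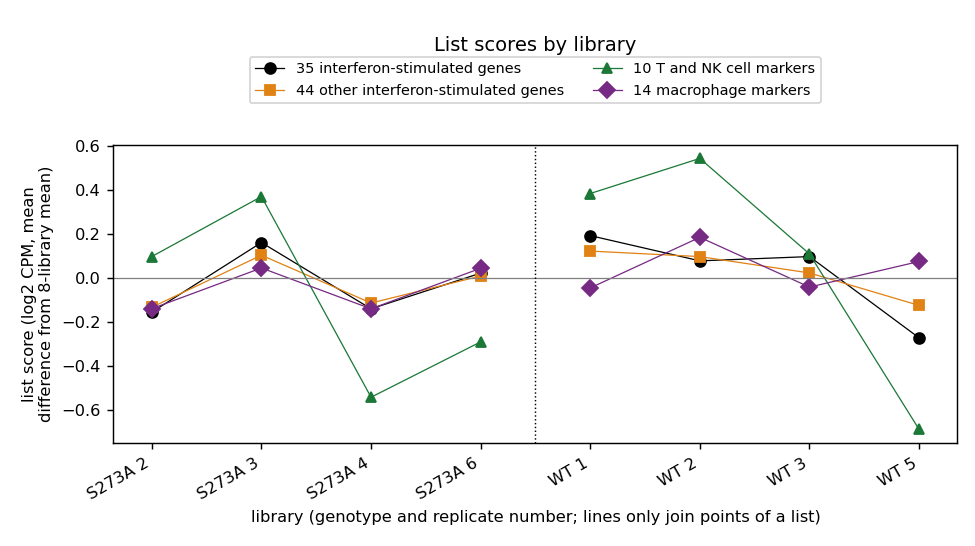
Score of 4 gene lists in each library, as the mean difference of log2 CPM from each gene's 8-library mean. The interferon-stimulated genes (black) run from -0.27 in WT replicate 5 to 0.19 in WT replicate 1. The T and NK cell markers (green) span a wider range, from -0.69 to 0.55. The macrophage markers (purple) stand at 0.08 in WT replicate 5 and at -0.14 in S273A replicates 2 and 4.

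The ligands themselves were barely detected. Of 16 type I interferon genes with a row, 11, Ifnb1 among them, had no count in any library, where a count of 0 allows up to 0.165 to 0.202 CPM per library (a floor of 3 counts, covering counting error only). Ifnk, an interferon best known from keratinocytes, was the only type I gene tested, at 1.53 ± 0.245 CPM in S273A and 1.49 ± 0.412 CPM in WT (SD, n = 4 each). Ifng, the type II interferon of T and NK cells, had 0.725, 0.956, 0.517 and 0.123 CPM in S273A and 0.890, 0.853, 1.09 and 0.352 CPM in WT, a log2 fold change of -0.42 (SE 0.49). Its value in S273A replicate 6 lies under the floor of 0.186 CPM.

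None of the other pathway genes was called either. Of 21 genes of nucleic acid sensing, 4 had estimates above 0 and 17 below, with a median log2 fold change of -0.04, and none passed an unadjusted p under 0.05. That median turned to 0.005 without WT replicate 2 and 0.0014 without S273A replicate 4, and it was -0.07 without WT replicate 5 or S273A replicate 3. The smallest p belonged to Rnaseh2c, a subunit of ribonuclease H2, at 5.82 ± 0.282 CPM in S273A and 6.78 ± 0.840 CPM in WT (SD, n = 4 each, log2 fold change -0.22). Rnaseh2b of the same enzyme (log2 fold change -0.12) and the endosomal RNA receptor Tlr8 (-0.10) came next.

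Of 13 genes of JAK-STAT signalling and its feedback, 5 had estimates above 0 and 8 below, with a median log2 fold change of -0.004. Its sign depended on single libraries: it ran from -0.04 without S273A replicate 3 to 0.03 without WT replicate 2, was also 0.03 without S273A replicate 4, and was 0.0046 with the replicate block. Of the receptor's kinases, Jak1 averaged 467 ± 10.3 CPM in S273A and 479 ± 11.4 CPM in WT, and Tyk2 96.2 ± 6.61 CPM in S273A and 96.9 ± 9.01 CPM in WT (SD, n = 4 each). The phosphatase Ptpn6, which damps cytokine signalling, had the smallest p of this list, with a log2 fold change of -0.17. Pias1, an inhibitor of the pathway, had a log2 fold change of -0.08.

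A further 44 interferon-stimulated genes were counted in the same way. Of these, 11 had estimates above 0 and 33 below, with a median log2 fold change of -0.07, and only Oas1g passed an unadjusted p under 0.05. Their median was -0.12 without WT replicate 5 or S273A replicate 3, -0.04 without WT replicate 1 or 2, and -0.03 without S273A replicate 4. Next by p were Parp10, an ADP-ribosyltransferase, at 32.1 ± 1.30 CPM in S273A and 34.97 ± 2.26 CPM in WT, and Ifitm1, which blocks viral entry, at 3.57 ± 0.192 CPM in S273A and 3.03 ± 0.320 CPM in WT (SD, n = 4 each). Their library scores were -0.13, 0.11, -0.11 and 0.01 in S273A and 0.12, 0.10, 0.02 and -0.12 in WT, lowest in S273A replicate 2 and WT replicate 5. In their promoters the ISRE occurred in 20 of 38 found (52.6%) and the GAS in 3 (7.89%).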

How the data were processed

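RNA-seq libraries from epididymal fat, 4 of S273A and 4 of WT mice on a high-fat diet, were compared, with genotype from the labels. Per the labels' protocols, ribosomal RNA was depleted and cDNA was made without marking the strand. The authors deposited whole-number counts per gene row and a column of row lengths in bases, used here for RPKM only. Per the submitters' processing notes, the tools were featureCounts 1.5.2, edgeR 3.3.0, Picard 2.9.2, bcl2fastq 2.20.0 and HISAT2 2.0.5, listed without roles, and the build was mm10.

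Here, edgeR 4.0.16 in R 4.3.3 was applied to all 8 libraries: filterByExpr (minimum count 10, total 15), TMM, glmQLFit with robust dispersion and glmQLFTest, with Benjamini-Hochberg adjustment over 15667 rows and a threshold of 0.05. Scores used log2 CPM with a prior count of 2. limma 3.58.1 (voom) and DESeq2 1.42.0 were alternatives, beside another normalization, no filter, no robust option, a replicate block and leaving out each library. The fit was tested on simulated data, with changes larger than any member's estimate, so that test does not show what the fit recovers at the members' size. A gene was matched by exact symbol, and none of the 35 shared its symbol with another row. The members and lists were chosen with earlier results of these data known. Values per library are given for the receptor chains, Stat2, Irf9, Irf7, Irf1, the 8 others with the smallest p and any gene without overlap. Genes at the ends of level and spread were also named. For the other named genes the log2 fold change is printed without its unadjusted p, and 1 gene of the pathway is not reported here. Positions are from GENCODE M21 on GRCm38 (mm10), and promoters from RefSeq on GRCm38.p6.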

Additional observations from a re-analysis of the deposited data

Results flagged for a closer look

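In 3 of the 72 groups of 4 libraries examined, 1 library stood far from the other three, by more than Dixon's 95% critical value. Chance gives about 1 in 20 groups. Bst2 was 24.9 CPM in WT replicate 5 and 33.5 to 34.95 CPM in the other WT libraries. Rtp4 was 11.4 CPM in S273A replicate 2 and 14.6 to 15.1 CPM in the other S273A libraries. Zbp1 was 24.9 CPM in S273A replicate 3 and 11.9 to 13.0 CPM in the other S273A libraries.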

How the results depend on the processing

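No member was called under any of the 14 settings tried beside the first. Over all rows, DESeq2 called 1, and leaving out single libraries gave 0 to 1 calls. The median member log2 fold change kept its sign, from -0.161 (without WT replicate 5) to -0.0218 (without WT replicate 1). Of the members, 19 kept their sign throughout and 16 did not. With the replicate block, the median was -0.0528 and the log2 fold changes of Ifit1 (-0.0129), Ifit2 (0.0027), Ifit3 (0.00166), Irf9 (-0.0522), Rsad2 (-0.139) and Xaf1 (0.038) turned, as did that of Mx1 under limma-voom (-0.000129). Only numbers 2 and 3 occur in both genotypes, so with the block the genotype difference rests on replicates 2 and 3 of each genotype alone. Libraries that share a number correlated at -0.102 and -0.282 in their deviations, beside -0.528 to 0.556 for unlike numbers. So few shared numbers cannot show whether the numbers pair the libraries. The block changed no call, and Isg20 had an unadjusted p under 0.05 in every setting but this one.

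Leaving out 1 library moved the log2 fold change of Ddx58 between -0.0452 and 0.00176, Ifi44 between -0.161 and 0.251, Ifit1 between -0.126 and 0.109, Ifit3 between -0.159 and 0.0901, Irf1 between -0.23 and 0.000181, Irf7 between -0.158 and 0.0157, Irf9 between -0.0814 and 0.0655, Isg15 between -0.221 and 0.0249, and Mx1 between -0.195 and 0.136. The same held for Oasl1 (-0.216 to 0.0464), Oasl2 (-0.168 to 0.0092), Rsad2 (-0.0531 to 0.261), Trim25 (-0.0467 to 0.0455), Xaf1 (-0.11 to 0.0987) and Zbp1 (-0.389 to 0.0623). Without WT replicate 5, Oas1a, Oas3, Bst2, Rtp4 and Trim30a were lower at an unadjusted p under 0.05 (log2 fold change -0.25, -0.37, -0.25, -0.28 and -0.20), with an adjusted p of 1 by edgeR. In that fit Isg20 was higher at the same unadjusted p (log2 fold change 0.24), and 261 of 15819 rows passed it in either direction.

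Genes near 3 CPM, such as Isg15, rest on the fewest counts. A stricter ISRE, with 1 more base fixed, was found in 12 of 28 promoters (42.9%), against 1079 of 27025 genes (3.99%). Among the other interferon-stimulated genes it was found in 19 of 38 (50%).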
